A study of Mus musculus with 12 samples.

Results

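The 41 genes described here encode peroxins, which build the peroxisome, the enzymes that work inside it, and proteins of its membrane. They were chosen by name, with earlier results of these data known, from 18193 genes with a probe set assigned to 1 gene symbol. Each was represented by the probe set with the highest mean over the 6 samples of a tissue. All 41 genes were measured: 13 peroxins, 23 enzymes and 5 membrane proteins. In liver all 41 passed the filter on dim probe sets. In muscle 38 passed, and Hao1, Agxt and Uox, enzymes of glyoxylate and urate metabolism, did not.

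Peroxisomes are membrane-bound organelles that take in finished proteins from the cytosol. Peroxins insert membrane proteins, carry enzymes across the membrane through receptors that are then recycled, and drive growth and division of the organelle. The enzymes shorten very long and branched fatty acids and bile acid precursors, make the first intermediates of ether lipids, and break down hydrogen peroxide. In liver many of these genes are targets of the nuclear receptor PPARα, which binds DNA together with RXR.

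Expression was measured on Affymetrix mouse arrays in liver and quadriceps muscle of C57BL/6 offspring killed at 4 weeks of age. The NP+tau dams received a normal protein diet (20% casein) with 1% taurine in the drinking water from day 1 of pregnancy, and the NP dams received the same diet with plain water. Per the paper these regimes ended at birth, and the sample labels call the supplementation in utero. The diet itself held no detectable taurine, per the methods. There were 3 NP+tau and 3 NP samples in each tissue. Per the methods, no pups shared a dam, and the tissues were taken from the same animals. Taurine was given to the mothers, so that these samples measure offspring of supplemented dams and not a direct treatment of the tissue. The values are log2 expression values, and differences are NP+tau minus NP on this scale with their standard error (SE) from limma. An adjusted p under 0.05 over all 29274 probe sets kept in a tissue was taken as the threshold.

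Hepatocyte markers averaged 13.93 to 14.12 in the 6 livers, and fibre markers averaged 13.98 to 14.32 in the 6 muscles. In muscle the hepatocyte markers were at 4.79 to 5.46, with Apob, Cps1 and Fgb below the filter. Among the liver arrays, that of NP+tau replicate 1 differed most from the rest, with a median absolute difference of 0.279 from the median array, against 0.0634 to 0.111 for the other livers. The inactive X transcript Xist was at 5.96 and 5.07 in NP+tau livers 2 and 3 but at 11.1 in NP+tau liver 1 and at 11.6 to 11.8 in NP livers. The same animals differed in this way in muscle. The methods describe both sexes in every group, which these values in NP go against, and whether the labels or that description are in error was not settled here. In these samples diet and sex cannot be told apart beyond NP+tau replicate 1. The number of arrays, 6 per tissue, limits the precision of each difference.

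In liver, no peroxisomal gene passed limma's test (0 of 41, with 0% of all probe sets called), and the lowest adjusted p among them was 0.718. At an unadjusted p under 0.05, 1 gene was higher in NP+tau, Acot8, against 0.7% of all probe sets, and 0 were lower, against 3.99% of all. The difference was above 0 for 31 genes and below 0 for 10. Its median was 0.19, with a range of -0.71 to 0.78, beside a median of -0.04 over all probe sets, 45.8% of which lay above 0. Every NP+tau liver was above every NP liver for Acot8 and Pex10 (5.73% of all probe sets), and every NP+tau liver was below every NP liver for Nudt19 (9.11% of all).

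In muscle, no peroxisomal gene passed either (0 of 38, with 0% of all probe sets called; lowest adjusted p 0.707 from limma). At an unadjusted p under 0.05, Phyh and Cat were higher in NP+tau, against 3.72% of all probe sets, and 0 genes were lower, against 2.4% of all. Of the 38 genes, 22 were above 0 and 16 below 0. Their median difference was 0.12, with a range of -0.79 to 0.91, and the median over all probe sets was 0.01, with 51.8% above 0. The groups did not overlap for 5 genes. Phyh, Amacr, Agps and Abcd3 were above in NP+tau (7.33% of all probe sets did this), and Pxmp2 was below (7.77% of all).

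**Figure D1:**
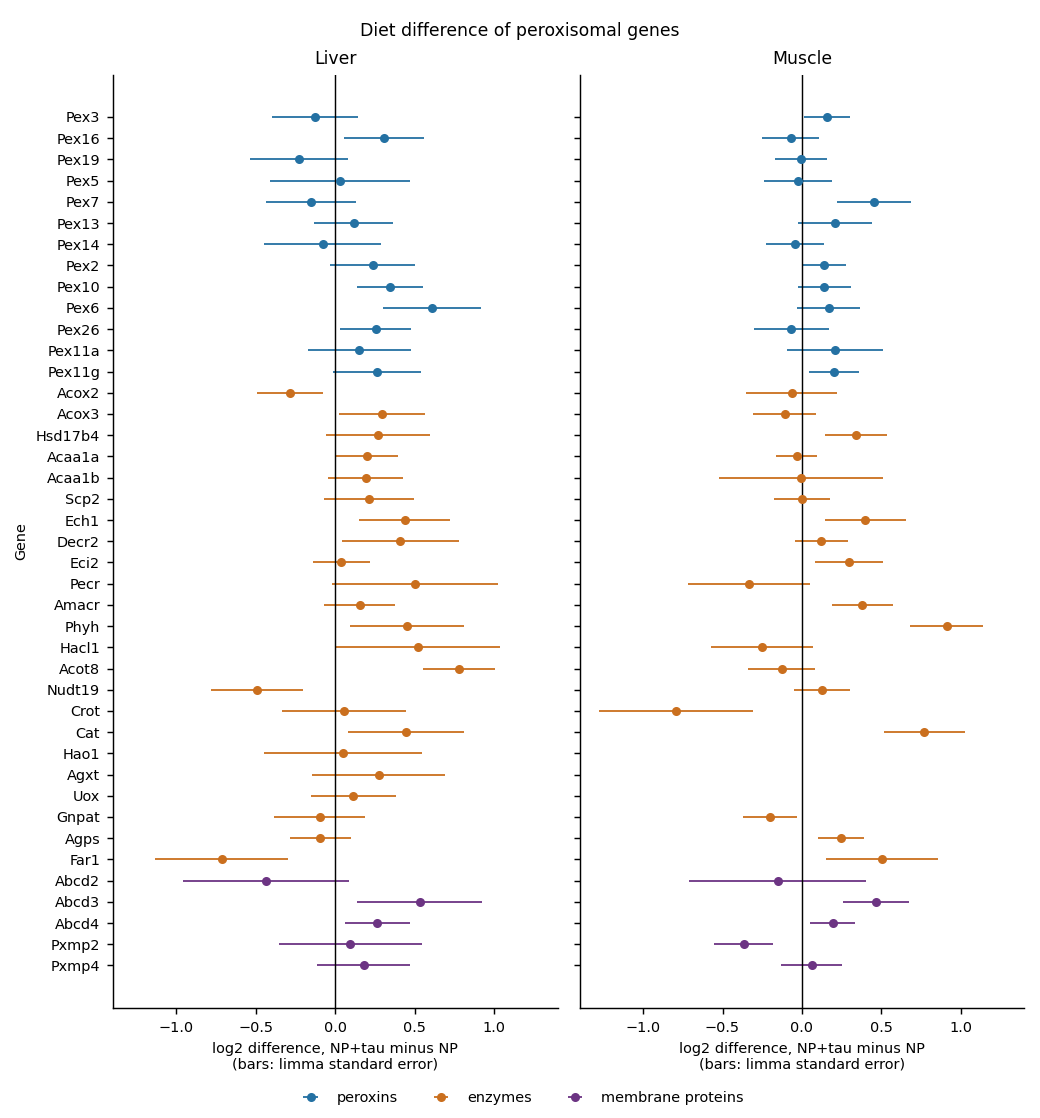
Log2 difference of each peroxisomal gene, NP+tau minus NP (horizontal axis), in liver and in muscle, with peroxins in blue, enzymes in orange and membrane proteins in purple. Points are limma estimates and bars are 1 SE; 31 of 41 points lie above 0 in liver and 22 of 38 in muscle, where Hao1, Agxt and Uox have no point.

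In liver the median diet difference was 0.15 for the 13 peroxins, 9 of them above 0, and 0.20 for the 23 enzymes, 18 of them above 0. The order of these medians depended on the processing. With the mean of all probe sets of a gene they were 0.01 for peroxins and 0.19 for enzymes, and with array weights 0.26 and 0.12. The 5 membrane proteins had a median of 0.18, with 4 above 0. Averaged over a class after each gene was centred on its mean over the 6 samples, the enzymes were at -0.13, 0.16 and 0.20 in NP+tau livers 1 to 3 and at -0.53, 0.13 and 0.16 in NP livers 1 to 3. The group means were 0.08 ± 0.18 in NP+tau and -0.08 ± 0.39 in NP (SD, n = 3 each), a difference smaller than the spread within either group. For the peroxins the class mean was -0.35, 0.22 and 0.33 in NP+tau livers and -0.39, 0.07 and 0.13 in NP livers, again with overlapping groups. The membrane proteins were at -0.34, 0.24 and 0.29 in NP+tau livers and at -0.72, 0.22 and 0.31 in NP livers.

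**Figure D2:**
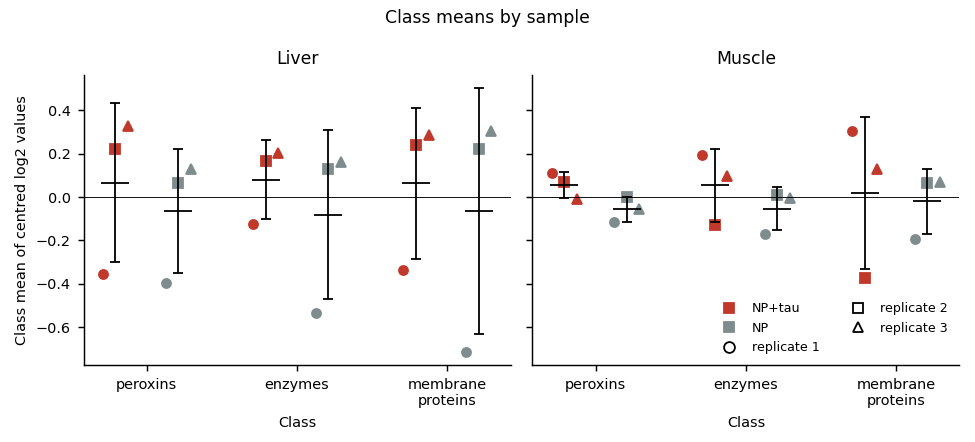
Class mean of centred log2 values (vertical axis) for peroxins, enzymes and membrane proteins in each NP+tau (red) and NP (grey) sample of each tissue, where marker shapes are replicates and black bars the mean and SD of 3 samples. In liver, replicate 1 is the lowest sample of both diets in each class, and NP replicate 1 lies at -0.53 for the enzymes.

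The livers labelled replicate 1 were thus low in both groups, and they differed in which genes were low. NP replicate 1 was the lowest of the 6 livers for 16 of 23 enzymes, 7 of 13 peroxins and 3 of 5 membrane proteins. Together these were 26 of 41 genes (63.4%), whereas this liver was the lowest for 19.0% of all probe sets. NP+tau replicate 1 was the lowest liver for 6 of 13 peroxins but 5 of 23 enzymes, together 13 of 41 genes (31.7%), beside 43.0% of all probe sets. Set against the mean of the other NP livers, NP replicate 1 was lower by a median of -0.70 for the enzymes and -0.51 for the peroxins. The medians were -1.60 for the α-oxidation enzymes Phyh and Hacl1 and -1.39 for Cat, Hao1, Agxt and Uox. The ether lipid enzymes Gnpat, Agps and Far1 went the other way, with a median of 0.46. NP+tau replicate 1, set against the other NP+tau livers, had medians of -0.72 for the peroxins and -0.26 for the enzymes. Over all probe sets these medians were 0.01 for NP replicate 1 and -0.14 for NP+tau replicate 1.

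Neutrophil markers were at 5.21 to 5.68 in NP+tau livers and at 9.52, 6.74 and 7.01 in NP livers 1 to 3, so that the liver with the lowest enzyme mean had the highest neutrophil mean. All 7 measured neutrophil markers were lower in NP+tau, as were all 8 macrophage, 5 fibroblast, 5 erythroid and 4 endothelial markers. Skeletal muscle fibre markers went the other way, with 7 of 8 higher in NP+tau. Their mean was 5.18 in NP+tau replicate 1, 4.39 and 4.45 in the other NP+tau livers and 4.34 to 4.40 in NP livers. These 8 include Myh4 and Tnnt3, which did not pass the filter in liver. Of the 4 measured cholangiocyte markers, 3 were higher in NP+tau and 1 lower. Of the 4 measured adipocyte markers, 2 were higher and 2 lower, with Adipoq and Lep below the filter. The endothelial means overlapped between the diets, with 7.29 in NP+tau replicate 3 and 7.09 in NP replicate 3. Macrophage markers were at 7.68 to 8.81 in NP+tau livers and at 9.22 to 9.88 in NP livers. Hepatocyte markers stayed within 13.93 and 14.12, with 3 of 8 higher and 5 lower in NP+tau. The part of these cells in the members' differences was not tested, and in whole tissue fewer cells of a type and less RNA per cell cannot be told apart.

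The direction of the liver result rested on these libraries. Without NP replicate 1, 18 of the 41 genes were above 0 and 23 below 0, 15 genes turned in direction, and the medians were 0.02 for peroxins and -0.04 for enzymes. Of the enzymes, 8 of 23 were then above 0. Without NP+tau replicate 1, 36 were above 0 and 5 below, with all 13 peroxins above 0 and medians of 0.37 for peroxins and 0.26 for enzymes. Without NP+tau replicate 3 the peroxin median was -0.01. Without both livers of replicate 1, 28 genes were above 0 and 13 below, with medians of 0.19 for peroxins and 0.03 for enzymes. Acot8 was at an unadjusted p under 0.05 in each of these fits.

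**Figure D3:**
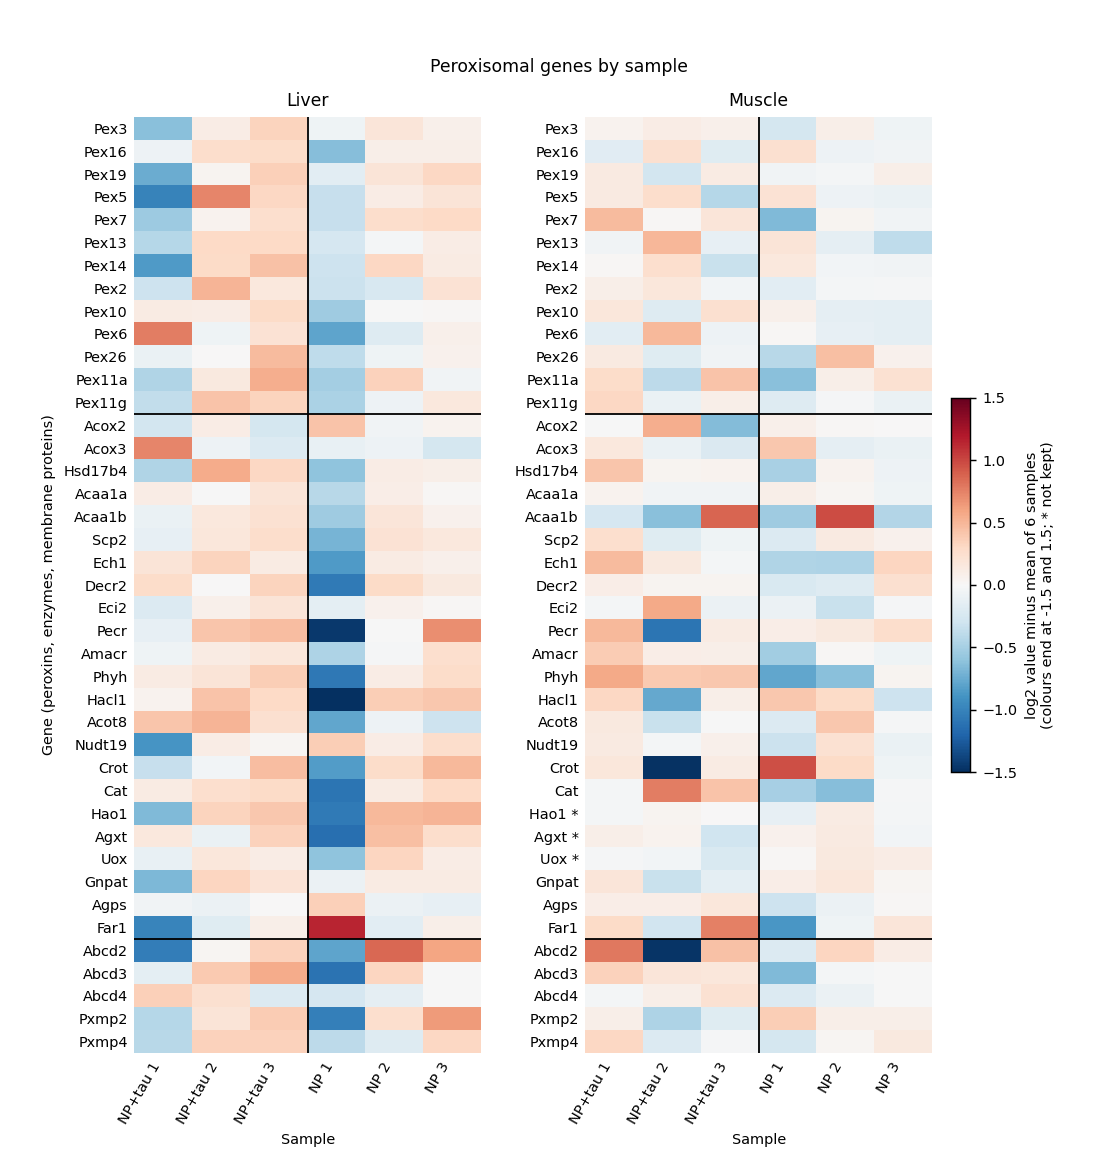
Log2 value minus the gene's mean over the 6 samples of the tissue (colour) for each peroxisomal gene (rows, with lines between peroxins, enzymes and membrane proteins) in each NP+tau and NP sample (columns) of liver and muscle. In liver the column of NP replicate 1 is blue through most enzymes from Acaa1a to Uox, and the column of NP+tau replicate 1 is blue through many of the peroxins; genes with an asterisk did not pass the filter.

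Among the peroxins in liver, Pex6 had the smallest p. It encodes an ATPase that pulls import receptors out of the membrane. Its level was 9.89, 9.06 and 9.35 in NP+tau livers and 8.33, 8.93 and 9.20 in NP livers. NP+tau replicate 1 was the highest sample and NP replicate 1 the lowest, and the groups overlapped in the others. The difference was 0.61 (SE 0.31, adjusted p = 0.718 from limma). Its 5 kept probe sets did not run one way, with 4 above 0 and 1 at -0.45 (SE 0.25). Pex26, which holds the Pex6 complex at the membrane, was at 7.16, 7.26 and 7.73 in NP+tau livers against 6.87, 7.19 and 7.32 in NP livers, and differed by 0.25 (SE 0.23).

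Pex10 and Pex2 belong to the ring of ubiquitin ligases that marks receptors for recycling. Pex10 was at 6.00, 5.98 and 6.16 in NP+tau livers against 5.34, 5.86 and 5.89 in NP livers. The groups did not overlap, but the gap between NP+tau replicate 2 and NP replicate 3 was small beside the spread within NP, and the difference was 0.35 (SE 0.21, adjusted p = 0.718 from limma). Pex2 differed by 0.24 (SE 0.27). Pex16, which takes part in inserting membrane proteins, was at 9.28, 9.62 and 9.63 in NP+tau livers and at 8.72, 9.44 and 9.45 in NP livers. NP replicate 1 alone was far below the rest, and the difference was 0.31 (SE 0.25).

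The import receptors lay close to 0 in liver. Pex5, the receptor for most matrix enzymes, was at 7.64, 9.37 and 8.95 in NP+tau livers and at 8.29, 8.75 and 8.83 in NP livers, with a difference of 0.03 (SE 0.44). Pex7, which imports a small set of enzymes including Phyh and Agps, differed by -0.15 (SE 0.28). NP+tau replicate 1 was the lowest liver for both. Pex3, Pex19 and Pex14 lay below 0 too, at -0.13, -0.23 and -0.08. Each of these values was within 1 SE of 0.

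Acot8, a thioesterase that releases fatty acids and bile acids from coenzyme A, had the smallest p of all 41 genes in liver. It was at 8.43, 8.53 and 8.25 in NP+tau livers and at 7.23, 7.93 and 7.71 in NP livers. All NP+tau livers were above all NP livers, and the NP livers were more spread. The means were 8.40 ± 0.14 in NP+tau and 7.62 ± 0.36 in NP (SD, n = 3 each), a 1.71-fold difference (log2 0.78, SE 0.23, unadjusted p = 0.0108, adjusted p = 0.718 from limma). Leaving out 1 liver at a time gave 0.58 to 0.93.

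Nudt19, which cleaves coenzyme A and its esters, was at 8.74, 9.73 and 9.65 in NP+tau livers and at 9.98, 9.73 and 9.89 in NP livers. All NP+tau livers were below all NP livers, but NP+tau replicate 2 and NP replicate 2 were equal to 2 decimals, and most of the difference of -0.49 (SE 0.29) came from NP+tau replicate 1. Without that liver it was -0.18. Crot, which moves shortened acyl chains onto carnitine for export, differed by 0.05 (SE 0.39). The thioesterase, the coenzyme A hydrolase and the carnitine transferase all act at the end of the pathway, and their values in liver were above, below and near 0.

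The 5 auxiliary enzymes of β-oxidation were above 0 in liver, with a median of 0.41, but without NP replicate 1 only Ech1 was, at 0.12. The others were then at -0.02 (Decr2 and Eci2), -0.10 (Pecr) and -0.04 (Amacr). Ech1, an isomerase for unsaturated acyl chains, was at 12.54, 12.67 and 12.47 in NP+tau livers and at 11.49, 12.47 and 12.41 in NP livers. Only NP replicate 1 was well below the others, by about a log2 unit, and the difference was 0.44 (SE 0.29). Pecr, an enoyl-CoA reductase, was at 9.20 in NP replicate 1, 10.65 in NP replicate 2 and 11.35 in NP replicate 3, a spread larger than its difference of 0.50 (SE 0.52). Decr2, Amacr and Eci2 differed by 0.41, 0.15 and 0.04.

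In the core of the β-oxidation pathway, 5 of 6 genes were above 0 and none by more than 0.30. Acox2, the oxidase for branched chains and bile acid intermediates, was the exception. Its level was 10.67, 11.05 and 10.68 in NP+tau livers and 11.37, 10.89 and 11.00 in NP livers. NP replicate 1 was the highest liver for this gene, and the difference was -0.29 (SE 0.21). Acox3, an oxidase of branched chains that was dim in liver, differed by 0.30 (SE 0.27), and Hsd17b4, the D-bifunctional protein, by 0.27 (SE 0.33). The thiolases Acaa1a and Acaa1b and the sterol carrier Scp2, which also holds a thiolase, differed by 0.20, 0.19 and 0.21.

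Phyh and Hacl1 carry out α-oxidation, which removes a carbon from phytanic acid. Phyh was at 12.79, 12.87 and 13.04 in NP+tau livers and at 11.61, 12.78 and 12.95 in NP livers. The difference was 0.45 (SE 0.36), and without NP replicate 1 it was 0.03. Hacl1 was at 12.19, 12.57 and 12.44 in NP+tau livers and at 10.59, 12.51 and 12.54 in NP livers, with a difference of 0.52 (SE 0.52). It was -0.13 without NP replicate 1, so that the sign of the value depended on that liver. Cat, the catalase that breaks down hydrogen peroxide, followed the same pattern, with 12.86, 12.98 and 13.02 in NP+tau livers and 11.64, 12.86 and 13.02 in NP livers. Its difference of 0.45 (SE 0.37) was 0.01 without NP replicate 1. Hao1 and Agxt, which make and remove glyoxylate, were also lowest in NP replicate 1, at 10.10 and 10.37, and differed by 0.05 (SE 0.50) and 0.27 (SE 0.42). Uox, which oxidises urate, differed by 0.11 (SE 0.27).

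The 3 enzymes of ether lipid synthesis were all below 0 in liver. Far1, which makes the fatty alcohol, was at 3.63, 4.44 and 4.71 in NP+tau livers and at 5.76, 4.45 and 4.70 in NP livers. It was dim, since a probe set was kept when its highest value reached 4.60, and the difference of -0.71 (SE 0.42) was largely that between NP+tau replicate 1, the lowest, and NP replicate 1, the highest. Without both it was near 0. All 4 kept probe sets of Far1 lay below 0 in liver. Gnpat and Agps, which add the acyl and the alkyl chain, differed by -0.10 (SE 0.29) and -0.09 (SE 0.19).

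Of the membrane proteins in liver, Abcd3, a transporter that brings branched acyl-CoAs and bile acid precursors into the peroxisome, was at 12.51, 13.05 and 13.21 in NP+tau livers and at 11.55, 12.98 and 12.65 in NP livers. NP replicate 1 was the lowest, and the difference was 0.53 (SE 0.39). Abcd4, first classed with the peroxisomal transporters and later placed in lysosomes, was at 6.33, 6.23 and 5.78 in NP+tau livers and at 5.72, 5.84 and 5.98 in NP livers, with a difference of 0.26 (SE 0.20). Abcd2, a transporter of very long chains, differed by -0.44 (SE 0.52), and the membrane proteins Pxmp2 and Pxmp4 by 0.09 (SE 0.45) and 0.18 (SE 0.29).

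In muscle the peroxins had a median difference of 0.14, with 8 of 13 above 0, and the 20 enzymes that passed the filter had a median of 0.06, with 11 above 0. The membrane proteins had a median of 0.06, with 3 of 5 above 0. The peroxin class mean was 0.11, 0.07 and -0.01 in NP+tau muscles and -0.11, 0.00 and -0.06 in NP muscles, with 0.06 ± 0.06 in NP+tau and -0.06 ± 0.06 in NP (SD, n = 3 each). NP+tau replicate 3 fell below NP replicate 2, so the groups overlapped. The enzyme class mean was more spread, at 0.20, -0.13 and 0.10 in NP+tau muscles and at -0.17, 0.01 and -0.01 in NP muscles. At the brightest probe set of each gene, the peroxins thus lay closer together than the enzymes, with none beyond -0.07 on the lower side. Other kept probe sets of peroxins ranged from -0.35 (Pex6) to 0.56 (Pex11a).

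Phyh had the smallest p of all 38 genes in muscle. Its level was 9.88, 9.70 and 9.71 in NP+tau muscles and 8.53, 8.69 and 9.35 in NP muscles. All NP+tau muscles were above all NP muscles, and NP replicate 3 stood between the NP+tau samples and the other NP samples. The means were 9.77 ± 0.10 in NP+tau and 8.86 ± 0.44 in NP (SD, n = 3 each), a 1.88-fold difference (log2 0.91, SE 0.23, unadjusted p = 0.00566, adjusted p = 0.707 from limma). The value lay between 0.75 and 1.16 when 1 muscle was left out at a time, with an unadjusted p under 0.05 each time. Hacl1, the next enzyme of α-oxidation, did not share it and differed by -0.25 (SE 0.32).

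Cat was the other gene at an unadjusted p under 0.05 in muscle. It was at 9.53, 10.32 and 9.98 in NP+tau muscles and at 9.06, 8.92 and 9.54 in NP muscles. The groups met, since NP+tau replicate 1 was just below NP replicate 3. The difference was 1.70-fold (log2 0.77, SE 0.26, unadjusted p = 0.0196, adjusted p = 0.707 from limma). A second probe set of Cat gave 0.64 (SE 0.24). The unadjusted p was over 0.05 without NP+tau replicate 2, NP+tau replicate 3, NP replicate 1 or NP replicate 2. The highest values of Cat were in NP+tau replicates 2 and 3, the muscles with low Xist (5.56 and 5.12). A fit with Xist as a covariate gave 0.38 for Cat and 1.05 for Phyh. That fit sets in effect NP+tau replicate 1 against the NP muscles. Whether the difference of Cat goes with diet or with sex was not tested, and these samples cannot tell them apart beyond NP+tau replicate 1.

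**Figure D4:**
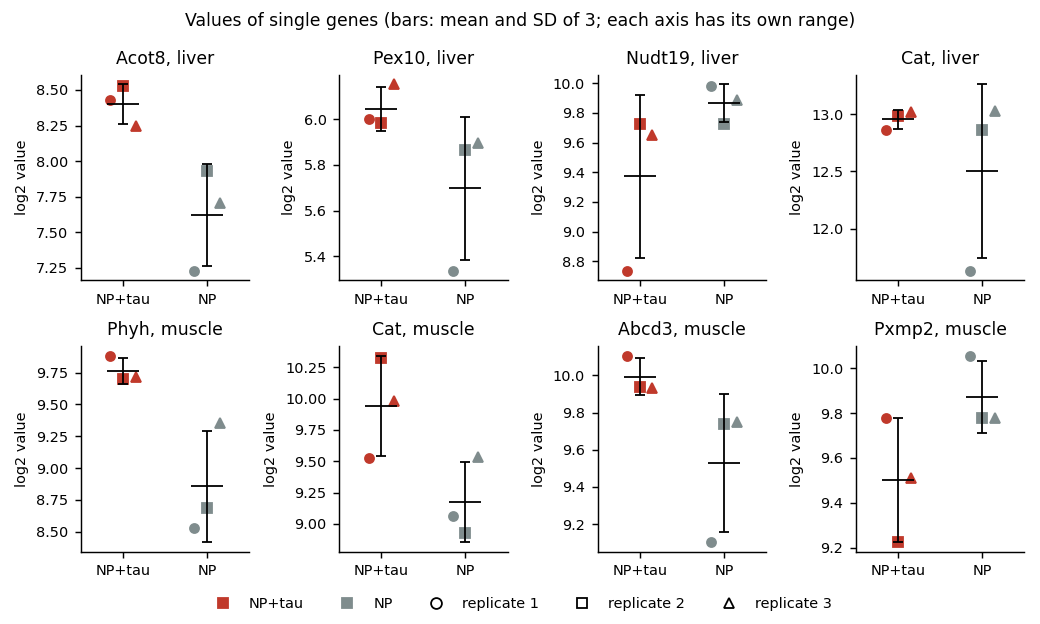
Log2 values of single genes in NP+tau (red) and NP (grey) samples, with marker shapes for the replicates and black bars for the mean and SD of 3 samples; each panel has its own vertical range. Acot8 in liver and Phyh in muscle show separate groups, Nudt19 in liver and Pxmp2 in muscle are separated by a very small gap, and Cat in liver differs through NP replicate 1, at 11.64.

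Among the other genes named in muscle, Pex7, the receptor that imports Phyh, was at 9.001, 8.54 and 8.70 in NP+tau muscles and at 7.85, 8.56 and 8.47 in NP muscles. NP replicate 1 was the lowest sample and NP+tau replicate 1 the highest, the other samples overlapped, and the difference was 0.45 (SE 0.23, adjusted p = 0.707 from limma). Amacr, the racemase that prepares branched acyl-CoAs for β-oxidation, was at 8.33, 8.05 and 8.03 in NP+tau muscles and at 7.43, 7.97 and 7.88 in NP muscles. The groups did not overlap, and the difference was 0.38 (SE 0.19). Abcd3 was at 10.11, 9.94 and 9.94 in NP+tau muscles and at 9.10, 9.74 and 9.75 in NP muscles, also without overlap, and differed by 0.46 (SE 0.21). Acox2, Acox3 and Hacl1, which also act on branched chains, were below 0, at -0.07, -0.11 and -0.25, as was the import receptor Pex5, at -0.02.

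Hsd17b4 was at 9.39, 9.004 and 9.03 in NP+tau muscles and at 8.49, 9.02 and 8.89 in NP muscles, and differed by 0.34 (SE 0.20). The groups overlapped at this probe set, while a second one, with a difference of 0.45 (SE 0.19), did not overlap. Agps was at 7.81, 7.81 and 7.89 in NP+tau muscles and at 7.41, 7.63 and 7.73 in NP muscles. These groups did not overlap, with a difference of 0.25 (SE 0.14). NP replicate 1 was the lowest muscle for Pex7, Amacr, Abcd3, Hsd17b4 and Agps. Without it their differences were 0.23, 0.21, 0.25, 0.18 and 0.16. This muscle was the lowest for 17 of 38 genes (44.7%), beside 22.3% of all probe sets. The other ether lipid enzymes, Far1 and Gnpat, differed by 0.50 (SE 0.35) and -0.20 (SE 0.17) in muscle.

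Crot had the lowest difference in muscle, with a difference of -0.79 (SE 0.49). It was at 8.76, 7.11 and 8.72 in NP+tau muscles and at 9.56, 8.89 and 8.53 in NP muscles. NP+tau replicate 2 was far below the other samples, and without it the difference was -0.25. Pxmp2, a pore of the peroxisomal membrane, was at 9.78, 9.22 and 9.51 in NP+tau muscles and at 10.06, 9.78 and 9.78 in NP muscles. The groups were separate only in the third decimal, and the difference was -0.37 (SE 0.19).

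The remaining peroxins named in muscle had small differences with little spread. Pex11g, which takes part in division of the organelle, was at 6.02, 5.60 and 5.79 in NP+tau muscles and at 5.51, 5.68 and 5.61 in NP muscles, with a difference of 0.20 (SE 0.16). Pex3, the membrane anchor for newly made membrane proteins, was at 7.32, 7.38 and 7.34 in NP+tau muscles and at 7.01, 7.36 and 7.21 in NP muscles, with 0.16 (SE 0.14). Pex2 was at 8.95, 9.04 and 8.82 in NP+tau muscles and at 8.70, 8.84 and 8.84 in NP muscles, with 0.14 (SE 0.14). Each of these groups overlapped. Decr2 and Acox3 were close to the filter in muscle, and their differences of 0.12 and -0.11 carry little signal.

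Endothelial markers were at 8.26 to 8.39 in NP+tau muscles and at 7.91 to 7.99 in NP muscles, with 4 of 4 higher in NP+tau. Neutrophil markers were spread in both groups, at 7.84, 7.56 and 9.005 in NP+tau muscles and at 8.32, 6.10 and 10.77 in NP muscles. Adipocyte markers were at 6.61 to 7.69 in NP+tau muscles and at 7.28 to 7.77 in NP muscles. Fibre markers were at 14.29 to 14.32 in NP+tau muscles and at 13.98, 14.30 and 14.28 in NP muscles 1 to 3, so that NP replicate 1 was the lowest. Hepatocyte markers were lower in NP+tau for 8 of 8 and macrophage markers for 7 of 8. These counts include markers that did not pass the filter in muscle, Apob, Cps1 and Fgb of hepatocytes and Marco and Vsig4 of macrophages. The part of these cells in the values of Phyh, Cat and the others was not tested.

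Whether a gene differed between the tissues in its diet difference was tested as an interaction. Of 38 genes, 0 passed (0% of 25622 probe sets kept in both tissues), and Acot8 was at an unadjusted p under 0.05, beside 7.8% of all probe sets. Acot8 differed by 0.78 in liver and by -0.13 in muscle, where it was at 6.59, 6.11 and 6.43 in NP+tau samples and at 6.24, 6.85 and 6.43 in NP samples. The liver minus muscle value was 0.91 (SE 0.32, unadjusted p = 0.0155, adjusted p = 0.542 from limma). Far1, at the probe set that was brightest over both tissues, had -0.79 (SE 0.44). In muscle Far1 was at 7.66, 7.09 and 8.12 in NP+tau samples and at 6.50, 7.31 and 7.55 in NP samples. Nudt19 had -0.62 (SE 0.35), with 9.44, 9.27 and 9.38 in NP+tau muscles and 8.98, 9.53 and 9.20 in NP muscles, and Pex7 had -0.61 (SE 0.38). Phyh, for all its value in muscle, had -0.46 (SE 0.45), so that its difference was not shown to depend on the tissue.

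Of the 41 genes, 23 had more than 1 probe set. Where several were kept, their differences did not all have the same sign for 10 genes in liver (Pex3, Pex19, Pex5, Pex2, Pex6, Pex11a, Acaa1a, Crot, Agps and Abcd2) and for 10 in muscle (Pex19, Pex5, Pex6, Pex11g, Acox3, Acaa1a, Scp2, Far1, Abcd2 and Abcd4). For Pex11g in liver, the brightest probe set gave 0.26 (SE 0.28) and a dimmer one 0.92 (SE 0.36). Pex5, Cat, Far1 and Abcd2 were read from different probe sets in the 2 tissues.

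Promoter windows were searched for the element that PPARα and RXR bind, a pair of AGGNCA copies in the same direction with 1 base between them, on either strand. RefSeq windows of 250 bases before to 50 after the start were matched for 34 of the 41 genes (GRCm38.p6). The pair was in 0 of the 34, beside 0.451% of 27025 genes, which says only that these letters were not in the windows searched. A single copy of AGGTCA on either strand, a search added after the pair had given no match, was in the windows of 4 genes, 11.8% of the 34, beside 18.1% of all genes. They are shown because Cat and Phyh, the 2 genes at an unadjusted p under 0.05 in muscle, were among them. Acot8, the gene at an unadjusted p under 0.05 in liver, had 0 matches in its window. The capitals mark the match, each sequence is given 5′ to 3′ on the strand of the gene, and TGACCT is AGGTCA on the opposite strand.
Cat, chr2:103485325-103485384, minus strand: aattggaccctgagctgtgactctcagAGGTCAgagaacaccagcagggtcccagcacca
Pex11g, chr8:3467789-3467848, minus strand: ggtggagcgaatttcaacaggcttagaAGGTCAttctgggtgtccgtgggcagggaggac
Scp2, chr4:108118624-108118683, minus strand: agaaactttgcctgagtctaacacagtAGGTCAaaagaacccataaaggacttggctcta
Phyh, chr2:4919024-4919045, plus strand: gttaagtgTGACCTgggcgcag
The match began 204 bases upstream of the start in Cat, 173 in Pex11g and 109 in Scp2, and 36 bases downstream of it in Phyh. The start used for Scp2 lies inside the gene, which spans chr4:108043830-108144971, and not at its outer end. A match of 6 letters describes the window and not binding.

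Other genes of the peroxisome gave a background for these values. Of 33 further peroxisomal genes and regulators analysed, 32 were kept in liver and 27 in muscle, and 0 passed the test in either tissue. In liver, 22 were above 0 and 10 below 0, with a median of 0.27, while 45.8% of all probe sets lay above 0. NP replicate 1 was the lowest liver for 19 of these 32 genes (59.4%), beside 19.0% of all probe sets. Set against the mean of the other NP livers, it had a median of -0.68 for them, beside 0.01 over all probe sets. Nudt7, another coenzyme A hydrolase, and Gstk1, a glutathione transferase, were higher at an unadjusted p under 0.05, against 0.7% of all probe sets. NP replicate 1 was the lowest liver for both. Every NP+tau liver was above every NP liver for 5 of the 32 genes, against 5.73% of all probe sets. For 3 of them it was below, against 9.11% of all. Gstk1 was at 11.73, 12.31 and 11.73 in NP+tau livers and at 10.57, 11.29 and 11.62 in NP livers, a difference of 0.77 (SE 0.32). Nudt7 and Nudt19, which act on the same kind of substrate, thus had values of opposite sign in liver, at 1.72 (SE 0.42) and -0.49 (SE 0.29). Mff, the receptor for the division machinery, was at 9.15, 9.13 and 9.50 in NP+tau livers and at 9.95, 9.63 and 9.55 in NP livers, and differed by -0.45 (SE 0.20).

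Of the regulators in liver, Ppargc1a, a coactivator of PPARα, was the gene lower at an unadjusted p under 0.05 (3.99% of all probe sets). It was at 6.08, 5.38 and 7.16 in NP+tau livers and at 7.85, 7.99 and 7.24 in NP livers (difference -1.49, SE 0.45). All NP+tau livers were below all NP livers (9.11% of all probe sets), with NP+tau replicate 3 and NP replicate 3 close together. Of the 41 peroxisomal genes, 31 were above 0 in liver, but 18 were without NP replicate 1. Ppara itself differed by 0.14 (SE 0.30) and Rxra by 0.04 (SE 0.26). Ehhadh, the bifunctional enzyme of the classical pathway, was at 12.95, 13.82 and 13.55 in NP+tau livers and at 12.80, 13.69 and 12.84 in NP livers, with a difference of 0.33 (SE 0.33).

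In muscle the other peroxisomal genes had 13 above 0 and 14 below 0, with a median of -0.01, while 51.8% of all probe sets lay above 0. Ephx2, the soluble epoxide hydrolase, was at 7.56, 7.32 and 7.53 in NP+tau muscles and at 6.24, 6.86 and 6.77 in NP muscles, with no overlap and a difference of 0.85 (SE 0.20, adjusted p = 0.707 from limma). Nudt12, a hydrolase of nicotinamide nucleotides, was at 5.44, 6.61 and 5.88 in NP+tau muscles and at 4.94, 5.14 and 5.34 in NP muscles, a difference of 0.84 (SE 0.30). Dhrs4, a carbonyl reductase, differed by 0.59 (SE 0.23). These 3 of 27 genes were higher at an unadjusted p under 0.05, against 3.72% of all probe sets, and 0 were lower, against 2.4% of all. Every NP+tau muscle was above every NP muscle for 4 of the 27 genes, against 7.33% of all probe sets. For 2 of them it was below, against 7.77% of all. Acot3, a thioesterase that was dim in muscle, differed by -0.32 (SE 0.16), and Ehhadh by -0.03 (SE 0.29).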

How the data were processed

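The members and the gene lists were chosen with earlier results of these data known. The values analysed are the log2 expression values that the authors deposited, made from the arrays by quantile normalisation within each tissue and summary with RMA, for 45101 probe sets. Because the tissues were normalised apart, levels were compared within a tissue only. Probe sets were assigned to genes by the annotation of the platform (34958 with 1 symbol, 932 with several, 9211 with none), and those with several or no symbols were tested but not named.

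The 64 control probe sets were removed, and a probe set was kept if the highest of its 6 values reached the 35th percentile of these highest values (4.60 in liver, 4.49 in muscle), since the absent calls of the methods were not used here. Diets were compared by two-sided moderated tests (lmFit, then eBayes) in limma 3.58.1 under R 4.3.3, and p was adjusted by Benjamini-Hochberg. The interaction used 4 group means and the probe set of each gene with the highest mean over all 12 samples. In a run on simulated data, limma called 6% of the liver probe sets given a log2 change of 1 and 58% of those given 2. For such muscle probe sets the shares were 31% and 70%. It also called 3 unchanged probe sets in liver and 5 in muscle. The simulated noise was drawn independently for each probe set, so it held no shift shared across an array. The shares called cover such noise only. Within a tissue each sample is a separate animal, and p-values measure the spread between animals. Liver and muscle came from the same animals, so that the interaction was also fitted with the animal as a random block (within-animal correlation 0.148), which called 0 probe sets as well.

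Values in every sample are given for the 4 peroxins, 6 enzymes and 2 membrane proteins with the smallest unadjusted p in each tissue, for the 4 genes with the smallest p of the interaction, and for the 4 other peroxisomal genes with the smallest p, not all printed in full. Pex5, Hacl1, Pecr and Cat in liver were added after their values were seen. Some items are not reported here. To look for pairing, the mean of its diet group was subtracted from each value of a probe set. Over all probe sets kept, these deviations were correlated between same-numbered replicates of the 2 diets. The correlations of the deviations were 0.02, -0.11 and 0.11 in liver and -0.21, -0.27 and 0.33 in muscle. These had no common sign, and replicate numbers were not treated as pairs in the main fits. For the peroxisomal genes, however, liver replicate 1 was low in both diets. The alternatives were other filters, an intensity trend, array weights, centring, a covariate for Xist, a block for the replicate number, other probe sets of a gene, and each replicate left out in turn. The targeting signals at the ends of the proteins were not analysed here. Input was handled with pandas 2.3.3 and the R package data.table (1.17.8), and plots were made in matplotlib 3.10.9.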

Additional observations from a re-analysis of the deposited data

How the results depend on the processing

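No peroxisomal gene was called under any alternative except the Xist covariate in liver. That fit called 9449 probe sets, 6 of the 41 genes among them (Pex3, Pex19, Pex14, Acox3, Nudt19 and Gnpat), and moved the liver peroxin median to -0.44, with Nudt19 at -1.21 (adjusted p = 0.0119 from limma) and Pex26 at -0.0455, below 0 there. It sets in effect NP+tau replicate 1 against the NP livers, and that array stood apart. Over all probe sets of liver, 8 were called with array weights and 9 without both livers of replicate 1, against 0. Leaving out 1 replicate called 0 to 9 probe sets in liver (9 without NP+tau replicate 1) and 0 to 8 in muscle (8 without NP+tau replicate 1). The same fits gave liver medians of -0.01 to 0.37 for peroxins and -0.04 to 0.33 for enzymes, and muscle medians of 0.0771 to 0.158 and 0.02 to 0.14. In liver, peroxin and enzyme medians were 0.01 and 0.19 with the mean of a gene's probe sets and 0.26 and 0.12 with array weights. The muscle peroxin median was 0.0541 with the mean of a gene's probe sets, and the muscle enzyme median was 0.25 with the probe set of smallest p. The single half-site, added after seeing the data, was found in 4 genes, against 0 for the pair. The replicate block gave 0 calls in both tissues and changed no call. For the 28 named values of single genes, 410 of 412 alternatives kept the direction and the side of the threshold, but these genes had been named for small p. Their lowest adjusted p in the main fits was 0.542 from limma, far from the threshold. A value that fell close to 0 with the same sign counts as kept, such as Phyh in liver at 0.03 without NP replicate 1. Of all 41 genes in liver, 16 turned in direction with the Xist covariate and 15 without NP replicate 1. In muscle the Xist covariate called 0 probe sets, but 13 of 38 genes turned in direction. Of the 20 enzymes, 18 were then above 0, with a median of 0.19. Phyh was then the only one of the 38 at an unadjusted p under 0.05 from limma. The cause of these changes was not tested.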
